A study of Moricandia moricandioides and Moricandia arvensis and Moricandia suffruticosa with 11 samples.

Results

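The genes described are the pectin modifying enzymes and their inhibitors: the gene models whose deposited short description holds the word pectin or pectate, 245 of the 33602 Arabidopsis models onto which leaf reads of 3 *Moricandia* species were counted. The leaf transcriptome had been compared between *M. moricandioides*, a C3 species (4 plants, seed from Osnabrück), *M. arvensis* line MOR1, a C3–C4 intermediate (4 plants, seed from IPK Gatersleben), and *M. suffruticosa*, also a C3–C4 intermediate (3 plants, seed from Kew). C3–C4 intermediates recapture photorespired CO2 in the bundle sheath without a full C4 cycle. All were grown in a climate chamber, and mature leaves were taken before flowering, early in the light period, with 1 library per plant. Each species stands for 1 line from 1 seed source, so photosynthesis type, species and line cannot be told apart.

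Pectin is the acidic polysaccharide of the primary wall and the middle lamella, where it holds neighbouring leaf cells together. Its main domain, homogalacturonan, leaves the Golgi apparatus with most of its acid groups closed by methyl esters. In the wall, pectin methylesterases remove these esters, and the freed acid groups can bind calcium, which stiffens the gel, or become the substrate of polygalacturonases and pectate lyases, which cut the chain. Methylesterase inhibitors are small proteins that bind methylesterases and block them, acetylesterases remove the acetyl groups that a part of the residues carries, and many plant methylesterases are made with an inhibitor-like domain in front of the enzyme.

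The 245 genes were 77 inhibitors, 64 methylesterases, 66 polygalacturonase-like genes, 25 pectate lyase-like genes, 12 acetylesterases and 1 gene of none of these classes, AT4G20040. Classes were set by the protein domains, enzyme activities and wording of the deposited annotation and, for pectate lyase-like genes, also by a list of Arabidopsis loci. The inhibitor domain is shared with inhibitors of invertase, so the inhibitor class can hold both kinds. Of the 64 methylesterases, 41 carry the inhibitor domain and 23 do not. Reads were found for 125 of the 245 genes: 31 inhibitors, 34 methylesterases, 33 polygalacturonase-like genes, 19 pectate lyase-like genes, 7 acetylesterases and AT4G20040. The other 120 were listed at 0 in all 11 libraries, and since the reads were matched to a reduced set of Arabidopsis coding sequences, a gene listed at 0 may not have been in that set. PME3 (AT3G14310), the closest Arabidopsis relative of PME2, is one of them, as are PME35, PME41, PME58, VGD1, QRT3, PGX2, ADPG1 and PMEI2. In 30 of the 69 genes that could be tested, the closest Arabidopsis relative named in the annotation was at 0, so a value can stand for reads of more than 1 copy.

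Libraries held 10987959 to 14865167 counted reads, and levels are given as rpm, reads scaled to the total of counted reads of the library, which are not corrected for gene length and are therefore compared between plants only. A gene was tested when it passed the filter on low counts (about 10 reads in each of 3 plants), and was called when its adjusted p in the quasi-likelihood F test of edgeR, over all 15570 genes tested, was at most 0.01. Of the 245 genes 69 passed: 12 inhibitors, 17 methylesterases, 15 pectate lyase-like genes, 18 polygalacturonase-like genes, 6 acetylesterases and AT4G20040. The remaining 56 with reads had at most 117 reads over all plants and together held 0.269% of the reads of all 245 genes.

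Some libraries stood closer together or further apart than the rest. *M. arvensis* plants 13 and 15 (r = 0.990 over log2 levels of the 15570 genes tested) and *M. suffruticosa* plants 6 and 7 (r = 0.991) were closer to each other than any other plants of a species (r of at most 0.970), although they differed by more than counting noise. *M. suffruticosa* plant 8 lay nearer to the *M. moricandioides* mean than both other plants of its species in 42 of the 69 genes, and was at least 1 log2 unit away from the mean of those plants in 10. *M. arvensis* plant 9 was nearer than every other plant of its species in 23 of the 69 and at least 1 log2 unit away in 16. These counts used log2 of rpm plus 1 and were not made over all genes. For the class sums and the counts of called genes, values without *M. suffruticosa* plant 8 or *M. arvensis* plant 9, or with the close pairs counted as 1 library each, stand beside the others.

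Read as sums over a class, the mean levels of all 4 enzyme classes were lower in both intermediates than in *M. moricandioides*. That of the inhibitors was higher in both, in *M. suffruticosa* only through 1 gene, AT3G47380, and in *M. arvensis* mostly through that gene. The inhibitors held 264 ± 64.9 rpm (SD, n = 4) in *M. moricandioides*, 696 ± 343 (n = 4) in *M. arvensis* and 384 ± 12.2 (n = 3) in *M. suffruticosa*. Without AT3G47380 they held 215 ± 58.4, 243 ± 64.5 and 118 ± 7.75 rpm, so that every *M. suffruticosa* plant (109 to 123 rpm) was then below every *M. moricandioides* plant (131 to 267 rpm) and *M. arvensis* (157 to 295 rpm) overlapped with it. The methylesterases held 707 ± 83.3, 437 ± 120 and 561 ± 70.8 rpm in the same order of species. In both sums plant 9 was the lowest *M. arvensis* plant, at 249 rpm of inhibitors, which is inside the *M. moricandioides* range of 170 to 317 rpm, and at 258 rpm of methylesterases. The rpm are scaled to library totals only. The further scaling factors (TMM) of the edgeR fit were 0.834 for plant 9 and 1.04, 1.17 and 1.16 for plants 12, 13 and 15. Dividing by them would raise the values of plant 9 and lower those of the others. The pectate lyase-like genes summed to 525 ± 106, 218 ± 26.1 and 395 ± 79.0 rpm and the polygalacturonase-like genes to 404 ± 65.3, 218 ± 15.4 and 285 ± 26.5 rpm, and in both classes every *M. arvensis* plant was below every *M. moricandioides* plant. The acetylesterases summed to 449 ± 65.5, 339 ± 77.2 and 338 ± 41.8 rpm, with plants of both intermediates inside the *M. moricandioides* range. Without plant 9 the *M. arvensis* means were 845 rpm for the inhibitors, 497 for the methylesterases, 207 for the pectate lyase-like genes, 225 for the polygalacturonase-like genes and 345 for the acetylesterases, and with plants 13 and 15 averaged they were 607, 415, 220, 216 and 319 rpm. Without plant 8 the *M. suffruticosa* means were 391, 522, 351, 272 and 314 rpm in the same order of classes, and with plants 6 and 7 averaged 380, 580, 417, 291 and 350 rpm, alternatives that were chosen after the values were seen. No test was run on these sums.

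**Figure D1:**
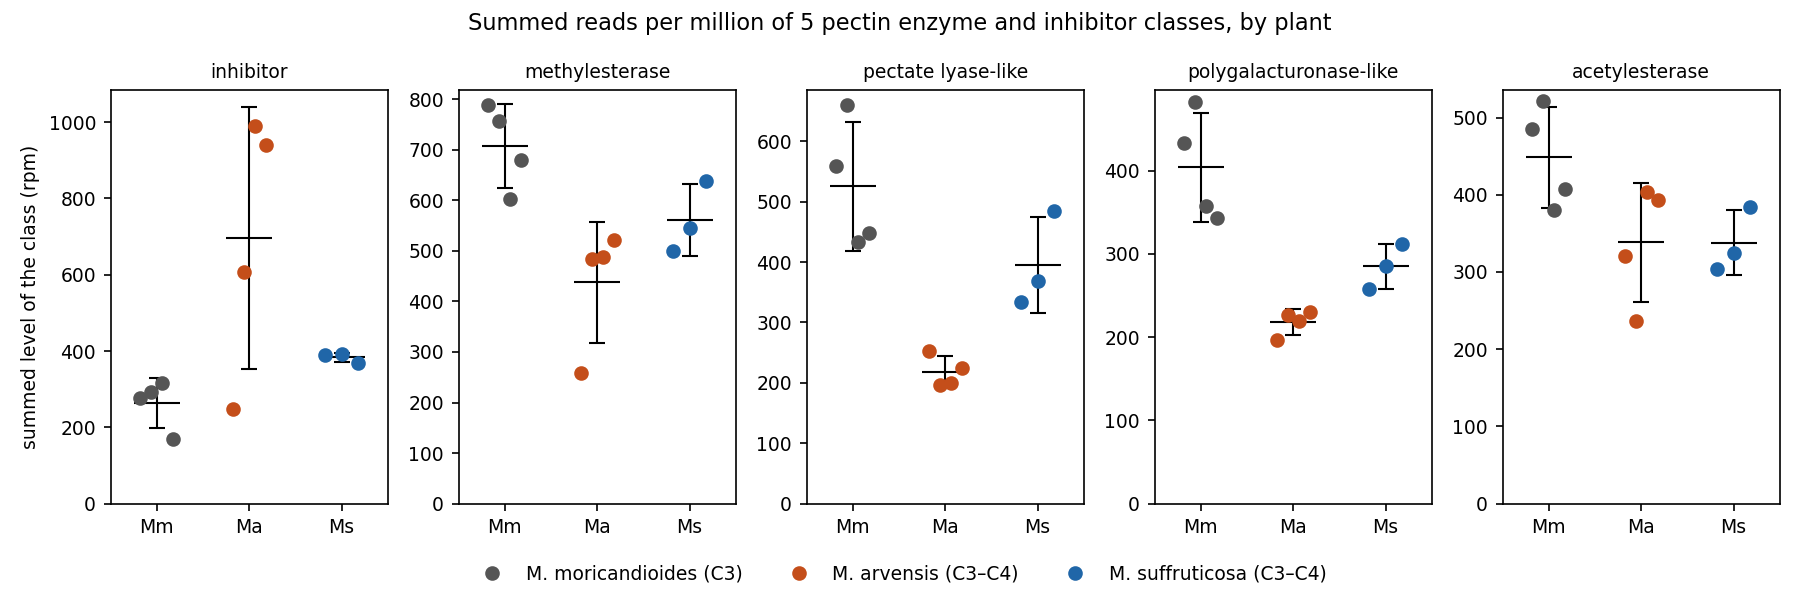
Summed level of each class in rpm (vertical axes from 0) for the 4 *M. moricandioides* (Mm), 4 *M. arvensis* (Ma) and 3 *M. suffruticosa* (Ms) plants. Points are plants, horizontal bars the species mean and error bars 1 SD. The inhibitor sum reaches 989 rpm in *M. arvensis*, while all 4 *M. arvensis* plants lie at 252 rpm or lower for the pectate lyase-like genes.

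Per plant, the ratio of inhibitor to methylesterase reads was 0.352, 0.386, 0.526 and 0.25 in *M. moricandioides* plants 6, 8, 12 and 15. It was 0.964, 1.26, 2.03 and 1.81 in *M. arvensis* plants 9, 12, 13 and 15 and 0.782, 0.718 and 0.580 in *M. suffruticosa* plants 6, 7 and 8. The plants of the 3 species did not overlap in this ratio. A single inhibitor, AT3G47380, carried much of it: of the inhibitor reads it held 15.8 to 23.0% in *M. moricandioides*, but 37.0 to 70.1% in *M. arvensis* and 66.9 to 72.2% in *M. suffruticosa*. Without AT3G47380 the ratio was 0.192 to 0.442 in *M. moricandioides* and 0.478 to 0.608 in *M. arvensis*, but 0.192 to 0.245 in *M. suffruticosa*, so that *M. suffruticosa* then lay at the lower end of the *M. moricandioides* range.

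Of the 69 genes tested, 12 were called higher and 23 called lower in *M. arvensis* when it was set against *M. moricandioides*, 50.7% in all, where 35% of all 15570 genes were called (18.2% higher, 16.7% lower). The share of genes called higher, 17.4%, was near the background and that of genes called lower, 33.3%, was above it. The median log2 fold change was −0.57 over the 69 genes and 0.02 over all genes tested. Plants of both species did not overlap in 12 of the 12 higher and 21 of the 23 lower genes. Among the 12 is AT3G24230, which had 1 read in *M. moricandioides* and passed the filter only through plants of the intermediates. Here and in the comparisons below, overlap was counted for the pectin genes only. The share without overlap among all called genes is not known, so these counts do not set the pectin genes apart. The counts were 10 higher and 25 lower of 68 genes without *M. arvensis* plant 9 (17.2% and 17.6% of all genes), 11 and 16 of 72 with close pairs added together (12.9% and 12.1% of all genes), and the lowest count with 1 plant left out was 15 lower, without *M. moricandioides* plant 6 (14.4% of all genes).

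In *M. suffruticosa* 7 of the 69 genes were higher and 15 lower than in *M. moricandioides*, 31.9% in all, against 18.9% of all genes (10.1% higher, 8.82% lower). The median log2 fold change was −0.55, against 0.01 over all genes tested, and plants did not overlap in 7 of the 7 higher and 14 of the 15 lower genes. The number of lower genes rested on the close pair of libraries: it was 4 of 73 genes tested without *M. suffruticosa* plant 6, 2 of 73 without plant 7 and 3 of 72 with close pairs added together, or 5.48%, 2.74% and 4.17%, where 4.31%, 4.16% and 3.82% of all genes were called lower. In these fits the share of lower genes was thus near or below the background. Without plant 8 it was 16 of 73 (6.95% of all genes), 11 of them among the 15. In 10 of the 15 lower genes, plant 8 was the highest *M. suffruticosa* plant.

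Between the intermediates, 7 genes were called higher and 12 called lower in *M. arvensis* when set against *M. suffruticosa*, 27.5% of the 69, against 19.3% of all genes (9.4% higher, 9.92% lower), and plants did not overlap in any of the 19. The median log2 fold change was −0.15 over the 69 genes and 0.01 over all. Without *M. arvensis* plant 9 the counts were 11 and 17 of 68 genes tested (9.81% and 11% of all genes), and with close pairs added together 5 and 7 of 72 (2.85% and 3.67% of all genes). The comparisons share plants: both comparisons with the C3 species use the same 4 *M. moricandioides* plants.

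In bulk leaf RNA, fewer cells of a type and less RNA per cell cannot be told apart, and marker genes were read beside the pectin genes. Of 8 vascular markers, *M. arvensis* had 5 at lower levels than *M. moricandioides*, all of them genes of the xylem wall or of xylem cell death (the secondary wall cellulose synthases IRX1, IRX3 and IRX5 by −2.05, −1.44 and −1.58 log2 units and the xylem proteases XCP1 and XCP2 by −3.25 and −2.83), while the phloem genes SUC2, SWEET11 and APL were not called there. Compared with *M. suffruticosa*, *M. arvensis* again had IRX1, IRX3 and IRX5 at lower levels (−1.61, −1.34 and −1.47), and XCP1 and XCP2 were not called (−1.38 and −1.90). The vascular list summed to 668 to 926 rpm in *M. moricandioides*, to 513 to 840 rpm in *M. arvensis* and to 578 to 1029 rpm in *M. suffruticosa*, where APL was called higher. Within *M. suffruticosa*, XCP1 was at 3.05, 3.75 and 14.7 rpm and XCP2 at 8.99, 11.6 and 36.9 rpm in plants 6, 7 and 8, so that plant 8 also stood apart in these xylem genes, with XCP2 inside the *M. moricandioides* range of 25.3 to 59.5 rpm. Of 4 guard cell markers tested, 3 were higher in *M. arvensis* than in *M. moricandioides* (list sums of 39.4 to 47.3, 51.3 to 88.3 and 57.2 to 63.6 rpm, with KAT1 at 0 in all plants), and between the intermediates MYB60 was higher (1.25) and SLAC1 lower (−1.06) in *M. arvensis*. Of 2 epidermis markers tested, PDF1 was lower in *M. arvensis* (list sums of 141 to 240, 95.6 to 166 and 214 to 237 rpm, with ATML1, CER1 and CER6 at 0), and of 2 bundle sheath genes SCL23 was higher in both intermediates (2.15 to 4.13 rpm in *M. moricandioides*, 10.96 to 21.4 rpm in *M. arvensis* and 7.55 to 15.8 rpm in *M. suffruticosa*) while SCR was not called (16.4 to 23.5, 14.2 to 25.3 and 13.3 to 22.4 rpm), with list sums of 20.6 to 27.5, 25.1 to 45.1 and 20.8 to 36.9 rpm. Mesophyll markers were high in every plant (23319 to 38377 rpm, with CAB1 and LHCB2.1 at 0, and RBCS1A lower in *M. arvensis*), dividing cell markers stayed at or below 5.09 rpm with CDKB1;1 and CDKB2;1 at 0, and of the 4 pollen markers, with list sums of 7.03 to 10.3, 13.0 to 24.8 and 10.3 to 12.4 rpm, AGP6 and AGP11 were at or near 0, MGH3 was not called and ACT12 was higher in *M. arvensis*. Calls of these markers were not repeated with plants left out or with close pairs counted as 1 library each. The part of these markers in the values below was not tested.

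Among the inhibitors, *M. arvensis* had 4 higher and 2 lower genes of the 12 tested when compared with *M. moricandioides*, *M. suffruticosa* had 3 higher and 3 lower ones, and 2 genes were higher in *M. arvensis* than in *M. suffruticosa*. These were 33.3% and 16.7%, 25% and 25%, and 16.7% of the 12, against 18.2% and 16.7%, 10.1% and 8.82%, and 9.4% of all genes. No test was run on the counts of any class. AT3G47380, the inhibitor with the most reads, was at 47.1, 61.5, 50.2 and 39.0 rpm in *M. moricandioides* plants 6, 8, 12 and 15, at 92.1, 376, 693 and 651 rpm in *M. arvensis* plants 9, 12, 13 and 15 and at 268, 283 and 247 rpm in *M. suffruticosa* plants 6, 7 and 8. All plants of both intermediates were above all C3 plants, and *M. arvensis* plant 9 was the nearest to them. The log2 fold change was 2.98 ± 0.41 (SE) for *M. arvensis* (edgeR adjusted p = 0.00011) and 2.36 ± 0.41 for *M. suffruticosa* (edgeR adjusted p = 0.0012), and the intermediates were not called different from each other (0.63 ± 0.41, edgeR adjusted p = 0.26). AT5G62340, whose closest Arabidopsis relative is the same as that of AT3G47380, AT5G62350, listed at 0 reads, was at 3.83 to 7.67 rpm in *M. moricandioides*, at 21.2, 54.6, 125 and 133 rpm in *M. arvensis* and at 38.1, 30.5 and 23.2 rpm in *M. suffruticosa*. It was thus also above every C3 plant in both intermediates (log2 fold changes of 3.75 ± 0.43 and 2.44 ± 0.43, edgeR adjusted p = 3.3e-05 and 0.0012), and plants 13 and 15 were again the highest.

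AT4G12390, annotated as pectin methylesterase inhibitor 1, was at 2.29 to 5.06 rpm in *M. moricandioides*, at 9.39 to 12.8 rpm in *M. arvensis* and at 10.6 to 14.4 rpm in *M. suffruticosa*, higher by 1.48 ± 0.21 and 1.67 ± 0.22 log2 units (edgeR adjusted p = 0.00016 and 0.00022). Here plant 9 lay close to the other *M. arvensis* plants. AT1G62760 set *M. arvensis* apart: it was at 9.58, 20.8, 9.56 and 13.3 rpm in *M. moricandioides*, at 46.8, 80.7, 66.9 and 60.1 rpm in *M. arvensis* and at 12.5, 11.7 and 12.7 rpm in *M. suffruticosa*. The difference between *M. arvensis* and *M. suffruticosa* was itself past the threshold (2.31 ± 0.26, edgeR adjusted p = 6.8e-05), as was that between *M. arvensis* and *M. moricandioides* (2.14 ± 0.23, edgeR adjusted p = 2.1e-05).

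The lower inhibitors included PMEI3 (AT5G20740), which in Arabidopsis blocks the formation of new organs at the shoot apex when it is overproduced. PMEI3 was at 35.1, 30.4, 17.2 and 23.1 rpm in *M. moricandioides*, at 4.70, 1.96, 1.04 and 1.47 rpm in *M. arvensis* and at 4.74, 4.74 and 8.19 rpm in *M. suffruticosa*, with no overlap between C3 and intermediate plants. The log2 fold change was −3.54 ± 0.48 in *M. arvensis* (edgeR adjusted p = 0.0001) and −2.22 ± 0.49 in *M. suffruticosa* (edgeR adjusted p = 0.0048). AT3G47670 was at 106, 75.4 and 134 rpm in *M. moricandioides* plants 6, 8 and 12 but at 21.0 rpm in plant 15, at 14.6 to 25.6 rpm in *M. arvensis* and at 16.4 to 22.4 rpm in *M. suffruticosa*, so that plant 15 fell within the range of the intermediates (log2 fold changes of −2.29 ± 0.43 and −2.23 ± 0.48, edgeR adjusted p = 0.00097 and 0.004). AT1G23205 was low in *M. suffruticosa* alone, at 3.68, 5.44 and 7.83 rpm, against 24.4 to 38.5 rpm in *M. moricandioides* and 15.7 to 40.0 rpm in *M. arvensis*. Its log2 fold change was −2.49 ± 0.33 against *M. moricandioides* (edgeR adjusted p = 0.00021) and *M. arvensis* exceeded *M. suffruticosa* by 2.29 ± 0.33 (edgeR adjusted p = 0.00036). PMEI6 (AT2G47670), known from seed coat mucilage, was at 9.62 to 17.7, 9.48 to 11.7 and 14.4 to 17.6 rpm in the 3 species and was not called in any comparison (log2 fold changes of −0.60 in *M. arvensis* and 0.02 in *M. suffruticosa*). For *M. suffruticosa*, the call of AT3G47670 was lost without *M. moricandioides* plant 6 or without any of its own 3 plants (edgeR adjusted p of up to 0.0234) and that of PMEI3 without *M. moricandioides* plant 6 or 8 or *M. suffruticosa* plant 6 or 7 (up to 0.0287). No other inhibitor call named here was lost when 1 plant was left out.

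**Figure D2:**
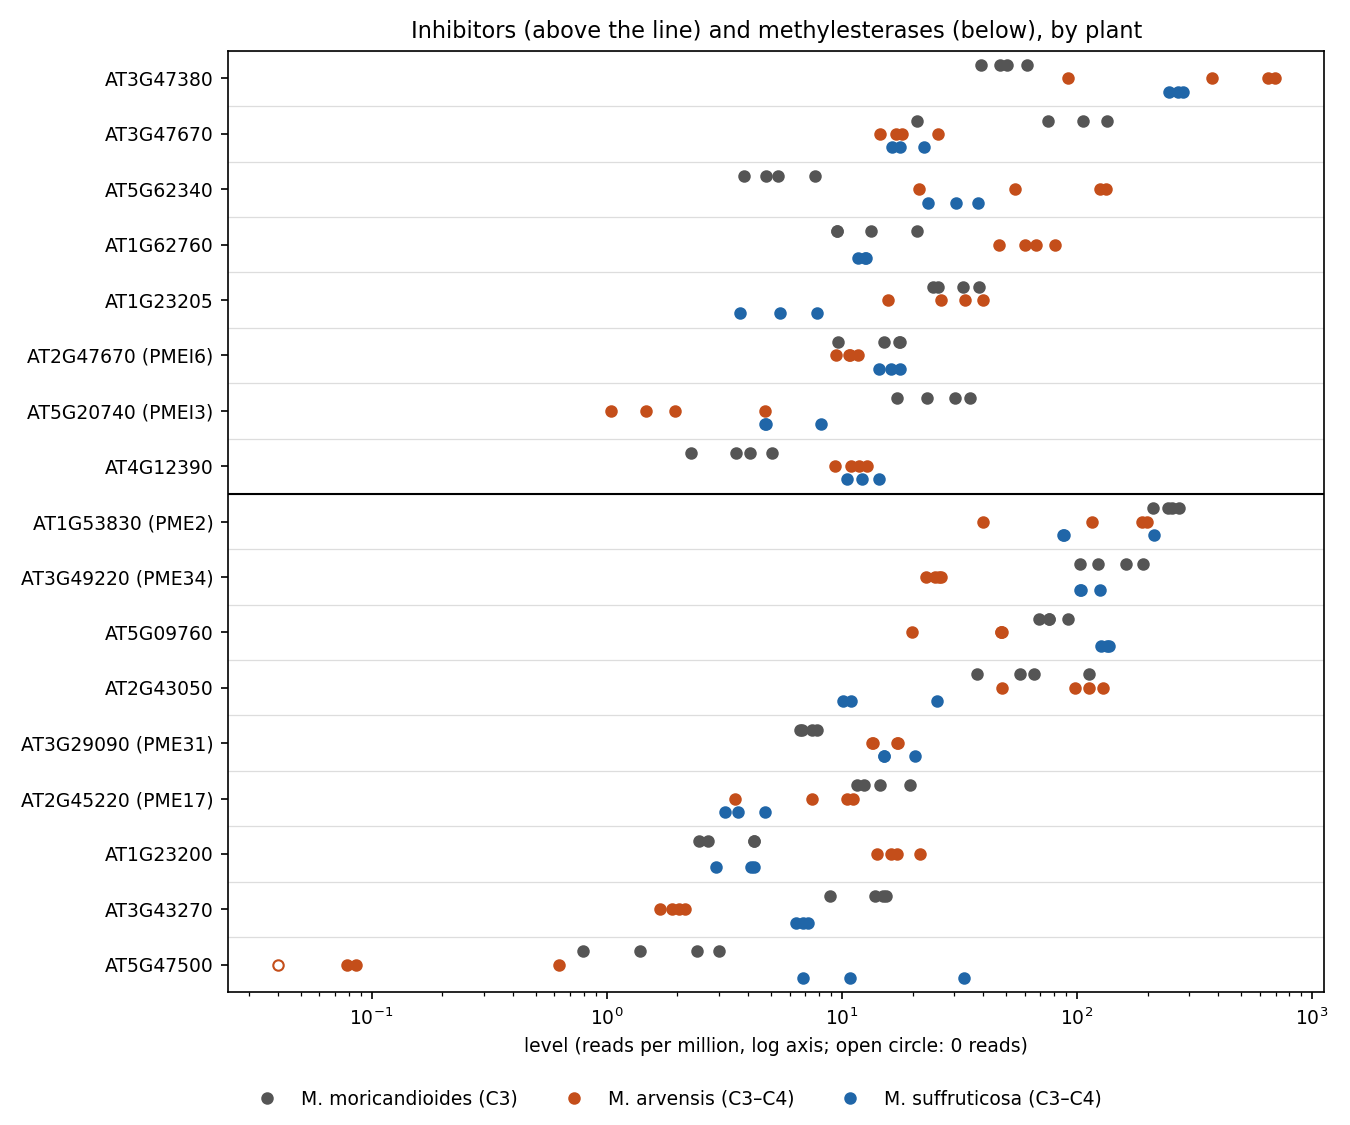
Level of each named inhibitor (above the line) and methylesterase (below) in rpm on a log axis, with 1 point per plant; the open circle marks a plant with 0 reads. AT3G47380 reaches 693 rpm in *M. arvensis* against at most 61.5 rpm in *M. moricandioides*, and AT5G47500 is highest in *M. suffruticosa* and lowest in *M. arvensis*.

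Of the 17 methylesterases tested, *M. arvensis* had 2 higher and 8 lower when compared with *M. moricandioides*, *M. suffruticosa* had 2 higher and 4 lower, and between the intermediates 2 were higher and 6 lower in *M. arvensis*. The shares were 11.8% and 47.1%, 11.8% and 23.5%, and 11.8% and 35.3%. Over all genes they were 18.2% and 16.7%, 10.1% and 8.82%, and 9.4% and 9.92%. Of the 13 with an inhibitor domain, 1 was higher and 7 were lower in *M. arvensis*, and 4 were lower in *M. suffruticosa*. Of the 4 without that domain, 1 was higher and 1 lower in *M. arvensis* and 2 were higher in *M. suffruticosa*. PME2 (AT1G53830), the methylesterase with the most reads, was at 244, 255, 211 and 271 rpm in *M. moricandioides*, at 39.8, 116, 190 and 200 rpm in *M. arvensis* and at 86.9, 88.0 and 213 rpm in *M. suffruticosa*. Only *M. suffruticosa* plant 8 reached into the C3 range, and the spread within both intermediates was wide, with *M. arvensis* plant 9 the lowest of all. PME2 was not called (log2 fold changes of −1.05 ± 0.39 and −0.97 ± 0.42, edgeR adjusted p = 0.04 and 0.096).

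PME34 (AT3G49220), which in Arabidopsis acts in guard cells during heat stress, was lowest in *M. arvensis*. It was at 161, 190, 104 and 123 rpm in *M. moricandioides* and at 104, 125 and 103 rpm in *M. suffruticosa*, but at 22.8, 25.9, 26.3 and 25.0 rpm in *M. arvensis*. The 4 *M. arvensis* plants lay close together, and *M. suffruticosa* overlapped with *M. moricandioides* (log2 fold changes of −2.63 ± 0.17 for *M. arvensis*, edgeR adjusted p = 7.4e-07, and −0.44 ± 0.17 for *M. suffruticosa*, edgeR adjusted p = 0.065). *M. arvensis* was also lower than *M. suffruticosa* (−2.19 ± 0.17, edgeR adjusted p = 7.1e-06). Of the 4 guard cell markers tested, 3 were higher in *M. arvensis* than in *M. moricandioides*, and against *M. suffruticosa* 1 was higher and 1 lower. AT5G09760 had its lowest values in *M. arvensis* (19.9, 47.6, 47.8 and 47.6 rpm), intermediate ones in *M. moricandioides* (68.7, 91.6, 75.8 and 75.8 rpm) and its highest in *M. suffruticosa* (126, 137 and 135 rpm). The 3 ranges did not overlap, but only the differences from *M. arvensis* were called (−1.10 ± 0.18 against *M. moricandioides*, edgeR adjusted p = 0.00044, and −1.80 ± 0.20 against *M. suffruticosa*, edgeR adjusted p = 6.3e-05), that of *M. suffruticosa* from *M. moricandioides* being 0.70 ± 0.19 (edgeR adjusted p = 0.016). AT3G43270 was at 8.88 to 15.4 rpm in *M. moricandioides*, 1.69 to 2.16 rpm in *M. arvensis* and 6.37 to 7.19 rpm in *M. suffruticosa*, and all 3 pairs of species were called (log2 fold changes of −2.87 ± 0.22, −1.03 ± 0.22 and, for *M. arvensis* against *M. suffruticosa*, −1.84 ± 0.23, edgeR adjusted p = 2.2e-06, 0.0037 and 0.00015).

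Other methylesterases differed in *M. suffruticosa*. AT2G43050 was at 112, 37.5, 57.3 and 65.9 rpm in *M. moricandioides*, at 47.8, 129, 98.1 and 113 rpm in *M. arvensis* and at 10.9, 10.1 and 25.3 rpm in *M. suffruticosa*, where it was below every plant of the other species (log2 fold change of −2.20 ± 0.44 against *M. moricandioides*, edgeR adjusted p = 0.0027). PME17 (AT2G45220), which rises in Arabidopsis leaves after fungal infection, was at 11.6 to 19.4 rpm in *M. moricandioides*, 3.52 to 11.1 rpm in *M. arvensis* and 3.19 to 4.73 rpm in *M. suffruticosa* (log2 fold changes of −0.98 ± 0.27 and −1.98 ± 0.32, edgeR adjusted p = 0.0098 and 0.00064). PME31 (AT3G29090), which has no inhibitor domain and is known from the salt response of Arabidopsis, was the methylesterase that rose in both intermediates: it was at 6.67 to 7.87 rpm in *M. moricandioides*, at 13.5 to 17.3 rpm in *M. arvensis* and at 15.1 to 20.5 rpm in *M. suffruticosa* (0.97 ± 0.18 and 1.16 ± 0.20, edgeR adjusted p = 0.001 and 0.00091). AT1G23200 rose in *M. arvensis* only, at 21.6, 17.1, 16.2 and 14.1 rpm against 2.46 to 4.24 rpm in *M. moricandioides* and 2.91 to 4.24 rpm in *M. suffruticosa*, and was higher there than in *M. moricandioides* (2.27 ± 0.26, edgeR adjusted p = 3.6e-05) and *M. suffruticosa* (2.19 ± 0.29, edgeR adjusted p = 0.00022).

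The widest gap between the intermediates was that of AT5G47500, a methylesterase without an inhibitor domain. It was at 1.39, 3.02, 0.797 and 2.42 rpm in *M. moricandioides*, at 6.87, 10.9 and 33.0 rpm in *M. suffruticosa* and at 0.0783, 0.624, 0 and 0.0862 rpm in *M. arvensis*. The *M. arvensis* values are 1, 7, 0 and 1 reads in plants 9, 12, 13 and 15, so the size of the changes that involve this species is poorly set. The 3 ranges did not overlap, and the differences from *M. moricandioides* were called in opposite directions (log2 fold changes of −3.40 ± 0.88 for *M. arvensis* and 3.12 ± 0.64 for *M. suffruticosa*, edgeR adjusted p = 0.0067 and 0.0031), with −6.51 ± 0.84 between *M. arvensis* and *M. suffruticosa* (edgeR adjusted p = 0.00018). Leaving out 1 plant ended the first call in 6 of 11 cases (*M. moricandioides* plants 6, 8 and 15 and *M. arvensis* plants 9, 13 and 15, adjusted p of up to 0.0216) and the second without *M. moricandioides* plant 6 or *M. suffruticosa* plant 8 (up to 0.0206), but never that between the intermediates. The first call was also lost with limma-voom and with close pairs counted as 1 library each. Over all alternatives its log2 fold change ran from −5.04 to −2.33, and that between the intermediates from −8.15 to −5.28. In *M. suffruticosa* the calls of AT2G43050 (without plant 6 or 7 of that species, up to 0.0179) and AT3G43270 (without *M. moricandioides* plant 8 or *M. suffruticosa* plant 6 or 7, up to 0.022) were lost as well, and that of PME17 in *M. arvensis* was lost without any *M. moricandioides* plant, without *M. arvensis* plant 9, 13 or 15 or without *M. suffruticosa* plant 6 or 7 (up to 0.034). The called methylesterases not described above were AT1G02810, AT3G47400, AT5G04960 and PME44 (AT4G33220), which are named after their values were seen: the first 3 were at or below 4.49 rpm in every plant and lower in *M. arvensis*, AT5G04960 was also lower in *M. suffruticosa*, and PME44 and AT3G47400 were lower in *M. arvensis* than in *M. suffruticosa* (−1.09 and −1.84).

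Of the 15 pectate lyase-like genes tested, *M. arvensis* had 3 higher and 5 lower when compared with *M. moricandioides*, *M. suffruticosa* had 1 higher and 2 lower, and 3 were lower in *M. arvensis* than in *M. suffruticosa*. In shares this was 20% and 33.3%, 6.67% and 13.3%, and 20%, against 18.2% and 16.7%, 10.1% and 8.82%, and 9.92% of all genes. AT5G63180 and PMR6, the members of this class with the most reads, were both low in *M. arvensis*. AT5G63180 was at 211, 221, 170 and 171 rpm in *M. moricandioides*, at 83.0, 40.1, 40.1 and 43.1 rpm in *M. arvensis* and at 155, 153 and 242 rpm in *M. suffruticosa*. The log2 fold change was −1.94 ± 0.33 for *M. arvensis* against *M. moricandioides* (edgeR adjusted p = 0.0005) and −1.81 ± 0.35 against *M. suffruticosa* (edgeR adjusted p = 0.002), while *M. suffruticosa* overlapped with *M. moricandioides* (−0.13 ± 0.34, edgeR adjusted p = 0.8). PMR6 (AT3G54920), whose loss makes Arabidopsis resistant to powdery mildew and changes its pectin, was at 155, 190, 118 and 108 rpm in *M. moricandioides*, at 13.7, 36.2, 42.8 and 47.2 rpm in *M. arvensis* and at 77.6, 97.2 and 87.5 rpm in *M. suffruticosa*. The 3 ranges did not overlap, *M. arvensis* was called lower than *M. moricandioides* (−2.20 ± 0.25, edgeR adjusted p = 3.5e-05) and than *M. suffruticosa* (−1.43 ± 0.26, edgeR adjusted p = 0.0016), and the difference of *M. suffruticosa* from *M. moricandioides* was −0.77 ± 0.27 (edgeR adjusted p = 0.042). Between the intermediates, the calls of AT5G63180 (edgeR adjusted p = 0.0152) and PMR6 (0.0101) were lost with close pairs counted as 1 library each, and with 1 plant left out they held at adjusted p of up to 0.00997 and 0.00846.

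AT1G67750 gave the largest decrease of the class in *M. arvensis*, to 1.10, 0.357, 0.298 and 0.776 rpm from 9.45 to 13.3 rpm in *M. moricandioides* (−4.28 ± 0.56, edgeR adjusted p = 8.1e-05), and in *M. suffruticosa* it was at 4.53, 5.37 and 17.7 rpm, below the C3 plants in plants 6 and 7 and above them in plant 8 (−0.40 ± 0.48, edgeR adjusted p = 0.55). *M. arvensis* was lower than *M. suffruticosa* by a log2 fold change of −3.88 ± 0.58 (edgeR adjusted p = 0.00044). AT1G04680 was at 20.0 to 38.1 rpm in *M. moricandioides*, 10.4 to 16.2 rpm in *M. arvensis* and 14.9 to 33.9 rpm in *M. suffruticosa* (−1.25 ± 0.30 for *M. arvensis*, edgeR adjusted p = 0.0042), and AT4G24780 was called lower in *M. suffruticosa*, at 21.0, 23.2 and 21.8 rpm against 38.1 to 80.7 rpm in *M. moricandioides* and 29.5 to 54.8 rpm in *M. arvensis* (−1.43 ± 0.30, edgeR adjusted p = 0.0036). AT3G09540 went the other way: it was at 2.01, 1.96, 1.16 and 1.48 rpm in *M. moricandioides*, at 15.5, 16.5, 11.7 and 11.8 rpm in *M. arvensis* and at 20.9, 25.3 and 12.3 rpm in *M. suffruticosa*. All plants of both intermediates were several times above all C3 plants (log2 fold changes of 2.98 ± 0.29 and 3.48 ± 0.30, edgeR adjusted p = 9.3e-06 and 1.4e-05). AT3G55140, AT3G53190 and AT3G24230, named after their values were seen, were the other members called: AT3G55140 was higher in *M. arvensis* (0.72), AT3G53190 was lower in both intermediates (−1.46 and −1.22), and AT3G24230 had 1 read in *M. moricandioides*, 67 reads in *M. arvensis* and 34 reads in *M. suffruticosa*, a ratio of reads per library total of 75.6 for *M. arvensis* with an exact 95% counting interval of 13.1 to 3031. It passed the filter on low counts only through plants of the intermediates. Its call as higher, 1 of the 3 of this class, was therefore close to given by the filter. The calls of AT1G04680 in *M. arvensis* (without *M. moricandioides* plant 6 or 8 or *M. arvensis* plant 12, 13 or 15, adjusted p of up to 0.0148) and AT4G24780 in *M. suffruticosa* (without any of its 3 plants, up to 0.02) were lost when 1 plant was left out. The xylem markers called lower in *M. arvensis* were 5 of the 8 vascular markers against *M. moricandioides* and 3 of the 8 against *M. suffruticosa*. SUC2, SWEET11 and APL were called in neither comparison. AT5G63180, PMR6 and AT1G67750 were lower in both comparisons. AT3G09540 and AT3G55140 were higher in *M. arvensis* than in *M. moricandioides*, as was AT3G24230, which passed the filter on low counts only through the intermediates. The part of the markers in these values was not tested.

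**Figure D3:**
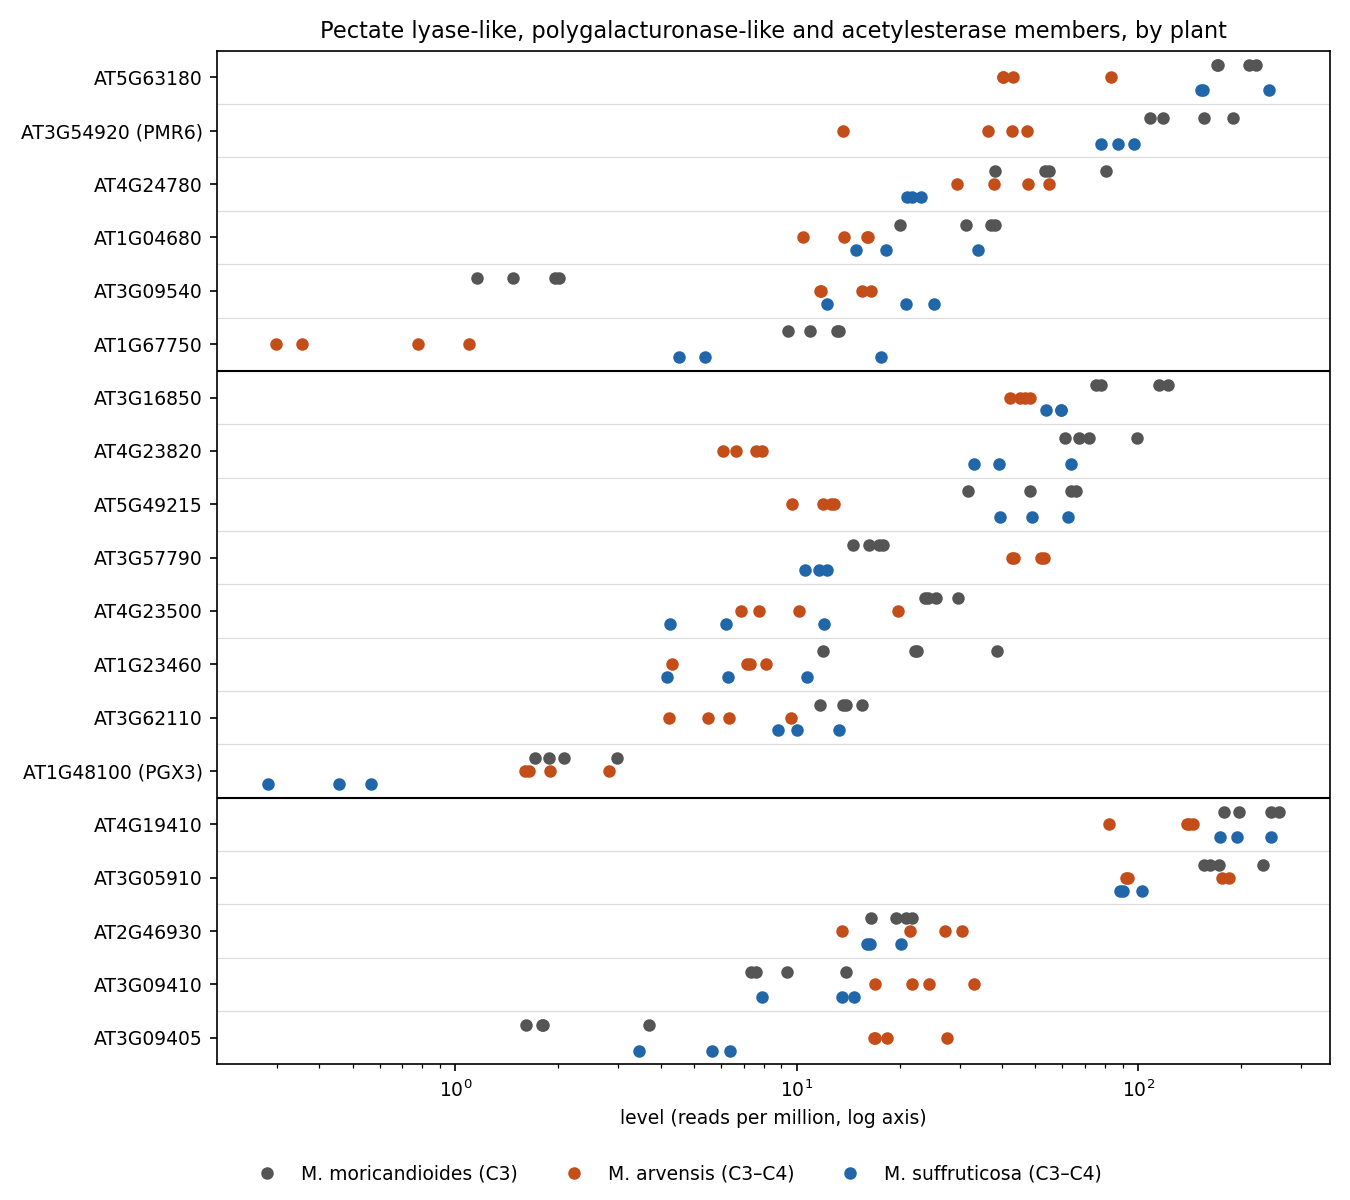
Level of each named pectate lyase-like gene (top), polygalacturonase-like gene (middle) and acetylesterase (bottom) in rpm on a log axis, with 1 point per plant. *M. arvensis* plants lie to the left of both other species for PMR6, AT1G67750, AT4G23820 and AT5G49215, and to the right for AT3G57790 and AT3G09405.

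Of the 18 polygalacturonase-like genes tested, *M. arvensis* had 1 higher and 7 lower when compared with *M. moricandioides*, *M. suffruticosa* had 1 higher and 5 lower, and between the intermediates 2 were higher and 3 lower in *M. arvensis*. As shares these were 5.56% and 38.9%, 5.56% and 27.8%, and 11.1% and 16.7%. Among all genes they were 18.2% and 16.7%, 10.1% and 8.82%, and 9.4% and 9.92%. AT3G16850, with the most reads of the class, was at 122, 115, 77.6 and 75.3 rpm in *M. moricandioides*, at 42.3, 46.7, 48.1 and 44.9 rpm in *M. arvensis* and at 59.6, 59.4 and 53.8 rpm in *M. suffruticosa*. It was below every C3 plant in both intermediates (log2 fold changes of −1.20 ± 0.15 and −0.82 ± 0.17, edgeR adjusted p = 7e-05 and 0.0029). AT4G23820 was at 60.8, 99.5, 71.9 and 66.9 rpm in *M. moricandioides*, at 7.59, 6.06, 6.63 and 7.93 rpm in *M. arvensis* and at 33.1, 39.2 and 63.6 rpm in *M. suffruticosa*. *M. arvensis* was far below both others, with a log2 fold change of −3.51 ± 0.26 against *M. moricandioides* (edgeR adjusted p = 2e-06) and −2.73 ± 0.27 against *M. suffruticosa* (edgeR adjusted p = 3e-05), and *M. suffruticosa* plant 8 reached into the C3 range (−0.78 ± 0.26, edgeR adjusted p = 0.035). AT5G49215 had the same order of *M. arvensis* below the others: 9.70 to 12.8 rpm, against 31.7 to 65.9 rpm in *M. moricandioides* and 39.3 to 62.4 rpm in *M. suffruticosa* (−2.27 ± 0.20 and −2.14 ± 0.21 against them, edgeR adjusted p = 5.4e-06 and 3e-05).

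AT3G57790 was the only gene of this class called higher in *M. arvensis* than in *M. moricandioides*. It was at 17.4, 14.6, 17.9 and 16.3 rpm in *M. moricandioides*, at 42.6, 43.3, 52.1 and 53.0 rpm in *M. arvensis* and at 12.3, 10.6 and 11.6 rpm in *M. suffruticosa*, 3 ranges without overlap. It rose in *M. arvensis* (1.40 ± 0.14, edgeR adjusted p = 1e-05) and was called lower in *M. suffruticosa* (−0.60 ± 0.15, edgeR adjusted p = 0.009), and the intermediates differed by 2.00 ± 0.15 (edgeR adjusted p = 6.3e-06). AT1G23460 was lower in both intermediates, at 4.30 to 8.11 rpm in *M. arvensis* and 4.18 to 10.7 rpm in *M. suffruticosa* against 12.0 to 38.6 rpm (−1.95 ± 0.34 and −1.80 ± 0.38, edgeR adjusted p = 0.00063 and 0.0036). AT4G23500 was at 6.85 to 19.8 rpm in *M. arvensis* and 4.25 to 12.0 rpm in *M. suffruticosa* against 23.7 to 29.7 rpm (−1.34 ± 0.37 and −1.85 ± 0.42, edgeR adjusted p = 0.0094 and 0.0051), and AT3G62110 was at 4.22 to 9.63 rpm in *M. arvensis* against 11.7 to 15.6 rpm (−1.15 ± 0.31, edgeR adjusted p = 0.0079). PGX3 (AT1G48100), an enzyme of guard and pavement cell walls in Arabidopsis, was low throughout, at 1.71 to 2.97 rpm in *M. moricandioides* and 1.60 to 2.82 rpm in *M. arvensis*, and lower still in *M. suffruticosa*, at 0.566, 0.283 and 0.455 rpm or 17 reads in all (−2.38 ± 0.46 against *M. moricandioides*, edgeR adjusted p = 0.0021). The members called but not described are AT3G06770 (lower in *M. arvensis* than in both others, −0.91 and −1.10) and AT1G19170 (higher in *M. suffruticosa* than in *M. moricandioides*, 0.90), which were named after their values were seen.

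Several calls of this class were lost when 1 plant was left out. The call of AT3G57790 in *M. suffruticosa* was lost in 9 of the 11 fits with 1 plant left out (all but *M. moricandioides* plant 8 and *M. arvensis* plant 9, adjusted p of up to 0.0548), those of AT3G62110 and AT4G23500 in *M. arvensis* in 9 (all but *M. arvensis* plant 9 and *M. suffruticosa* plant 8, up to 0.0271) and 8 (all but *M. arvensis* plant 12 and *M. suffruticosa* plants 6 and 8, up to 0.0278), and in *M. suffruticosa* those of AT4G23500 (without *M. moricandioides* plant 6, 12 or 15 or *M. suffruticosa* plant 6 or 7, up to 0.0299), AT3G16850 (without any of its 3 plants, up to 0.017), AT1G23460 (without plant 6 or 7, up to 0.0217) and PGX3 (without plant 7, up to 0.0156, and against *M. arvensis* without any of the 3, up to 0.0247). The calls of AT4G23820 and AT5G49215 in *M. arvensis*, and of AT3G57790 there, held with any 1 plant left out.

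Of the 6 acetylesterases tested, *M. arvensis* had 2 higher and 1 lower when compared with *M. moricandioides*, *M. suffruticosa* had 1 lower, and 1 was higher in *M. arvensis* than in *M. suffruticosa*. With so few genes, these are shares of 33.3% and 16.7%, 16.7%, and 16.7%, against 18.2% and 16.7%, 8.82%, and 9.4% of all genes. The members with the most reads were lower in 1 intermediate each. AT4G19410 was at 259, 245, 178 and 197 rpm in *M. moricandioides*, at 141, 81.9, 139 and 145 rpm in *M. arvensis*, below every C3 plant, and at 173, 194 and 244 rpm in *M. suffruticosa* (−0.89 ± 0.22 for *M. arvensis*, edgeR adjusted p = 0.005). AT3G05910 was at 173, 232, 162 and 156 rpm in *M. moricandioides*, at 93.1, 91.9, 184 and 176 rpm in *M. arvensis* and at 90.5, 88.3 and 102 rpm in *M. suffruticosa*, below every C3 plant in the latter (−1.01 ± 0.21, edgeR adjusted p = 0.0037). The 4 *M. arvensis* plants split here, plants 9 and 12 at the *M. suffruticosa* level and plants 13 and 15 at the C3 level (−0.56 ± 0.19, edgeR adjusted p = 0.031). AT2G46930 was at 13.6 to 30.4 rpm over all plants and was not called.

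AT3G09405 and AT3G09410, each the closest Arabidopsis relative of the other by the annotation, so that reads could be divided between them, were both higher in *M. arvensis*. AT3G09405 was at 3.68, 1.79, 1.81 and 1.61 rpm in *M. moricandioides*, at 27.5, 18.4, 17.0 and 16.8 rpm in *M. arvensis* and at 6.37, 5.66 and 3.46 rpm in *M. suffruticosa*. *M. arvensis* was above every other plant, by 3.09 ± 0.35 log2 units against *M. moricandioides* (edgeR adjusted p = 2.8e-05) and 1.96 ± 0.36 against *M. suffruticosa* (edgeR adjusted p = 0.0017). AT3G09410 was at 7.33 to 14.0 rpm in *M. moricandioides*, 17.0 to 33.0 rpm in *M. arvensis* and 7.92 to 14.7 rpm in *M. suffruticosa* (1.27 ± 0.31 for *M. arvensis*, edgeR adjusted p = 0.0046). Leaving out 1 plant ended the calls of AT3G09410 (*M. moricandioides* plant 8, 12 or 15 or *M. arvensis* plant 9 or 12, adjusted p of up to 0.0178), AT4G19410 (*M. moricandioides* plant 6 or 8 or *M. arvensis* plant 12, 13 or 15, up to 0.016) and AT3G05910 (*M. moricandioides* plant 8 or *M. suffruticosa* plant 6 or 7, up to 0.0238), and never that of AT3G09405.

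**Figure D4:**
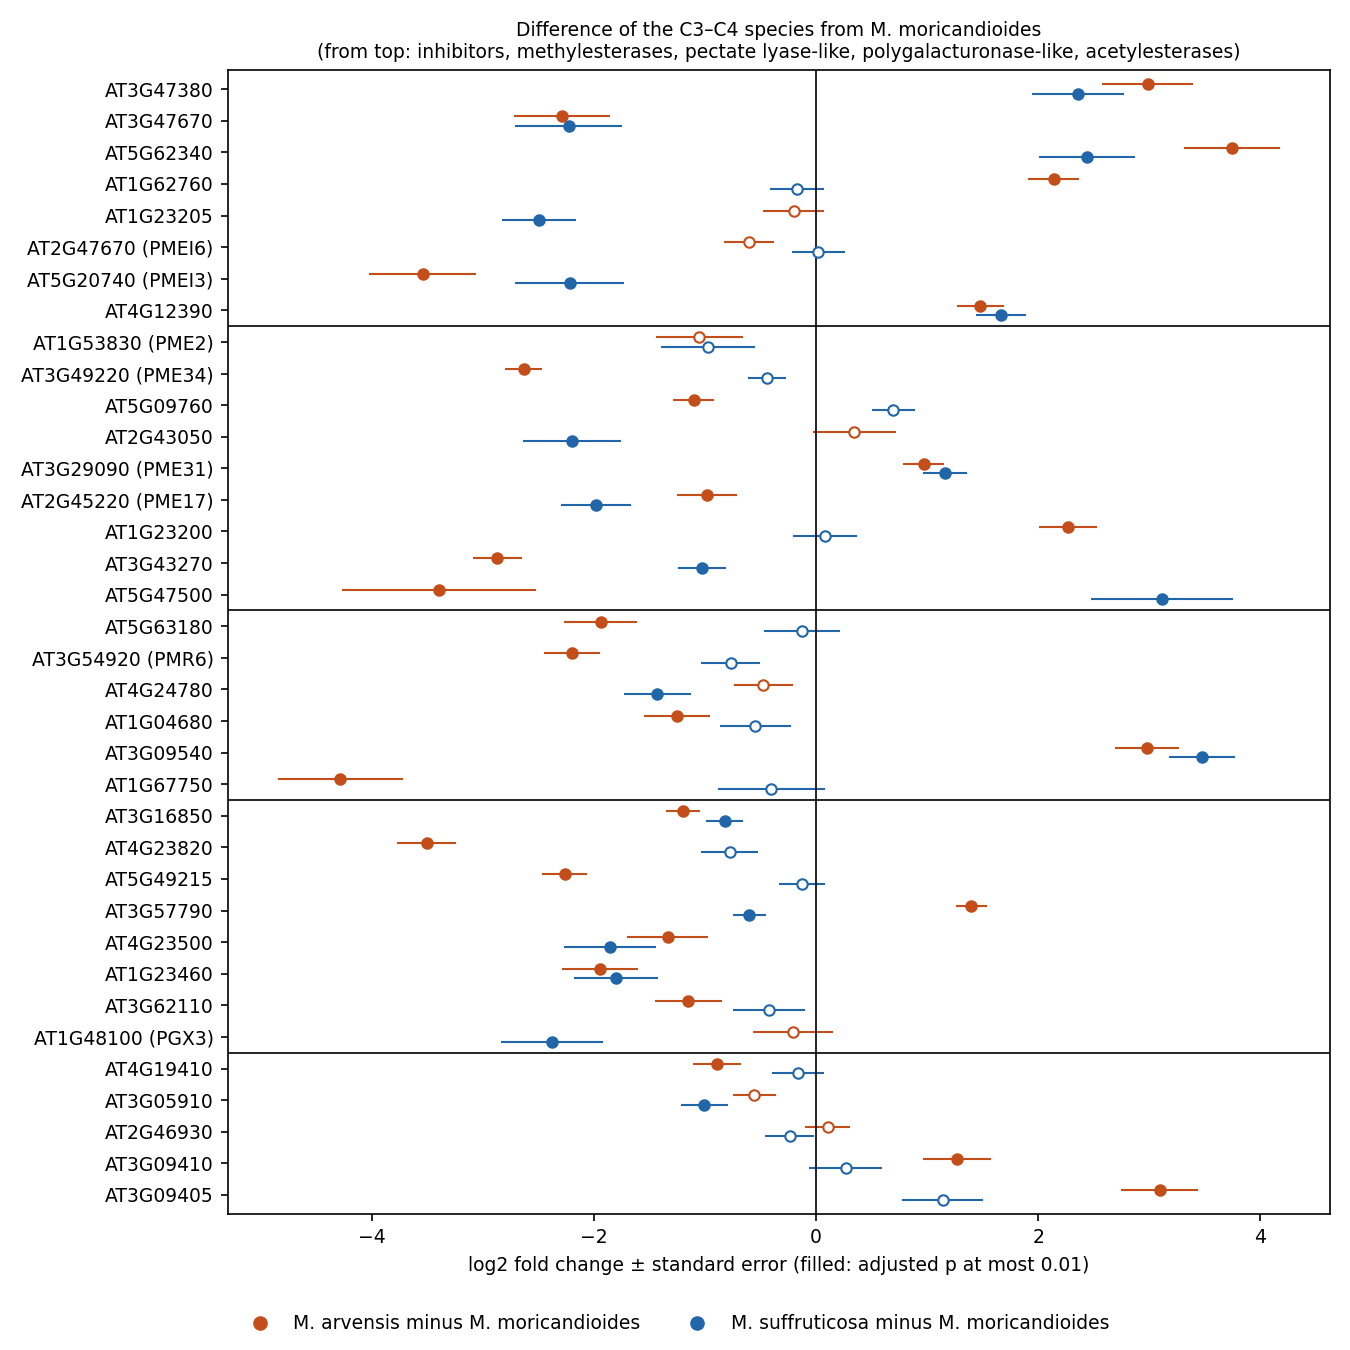
Log2 fold change (horizontal axis) of each named gene in *M. arvensis* and *M. suffruticosa* against the same 4 *M. moricandioides* plants, from the edgeR fit. Bars are standard errors and filled points passed the threshold; AT3G57790 and AT5G47500 have filled points on both sides of 0, and the lowest value is −4.28 for AT1G67750 in *M. arvensis*.

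Genes known from reproductive tissue gave few reads in these leaves. QRT1, which frees pollen grains from their tetrads, had 5 reads, all in *M. moricandioides*, PPME1 of the pollen tube had 3, 0 and 1 reads in *M. moricandioides*, *M. arvensis* and *M. suffruticosa*, and PMEI1 had 0, 0 and 6. QRT2, a polygalacturonase of the same process, had 8, 49 and 2 reads and PGX1, an enzyme of expanding cells, had 9, 8 and 4. None of these passed the filter on low counts, and no test was made. The pollen markers AGP6 and AGP11 had at most 0.347 rpm in any plant. MGH3, a histone of the male gamete, was at 0.724 to 3.23 rpm in *M. moricandioides*, 4.93 to 9.09 rpm in *M. arvensis* and 1.91 to 5.23 rpm in *M. suffruticosa* and was not called (1.33 for *M. arvensis*, edgeR adjusted p = 0.017). ACT12 was at 5.38 to 6.79, 7.98 to 16.7 and 6.30 to 9.92 rpm in the same order, higher in *M. arvensis* (0.95, edgeR adjusted p = 0.003).

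Genes that make or perceive pectin were read from a list of 29, of which 22 were tested and 7 were listed at 0 in all plants (GAE3, UGD3, RHM3, RRT1, PGIP2, WAK1 and WAK2). Against *M. moricandioides*, 8 of the 22 were called lower and 2 higher in *M. arvensis*, where the background over all genes was 16.7% and 18.2%. For *M. suffruticosa* the list held 1 higher and 0 lower, beside a background of 10.1% and 8.82%. Between the intermediates, 5 were lower and 0 higher in *M. arvensis*, beside 9.92% and 9.4%. The lower ones in *M. arvensis* were GALS1, a synthase of the galactan side chains, at 33.8 to 62.2 rpm in *M. moricandioides*, 7.15 to 10.6 rpm in *M. arvensis* and 22.8 to 31.6 rpm in *M. suffruticosa* (−2.51, edgeR adjusted p = 6.1e-06), the UDP-rhamnose synthases RHM1 and RHM2 (−0.90 and −0.56), the UDP-glucose dehydrogenases UGD2 and UGD4 (−0.80 and −0.50), the galacturonosyltransferase family genes GAUT7 and GAUT13 (−0.63 and −0.68) and the putative methyltransferase QUA3 (−0.53). QUA2, a methyltransferase needed for homogalacturonan and cell adhesion, was higher in *M. arvensis* (39.0 to 53.2 rpm in *M. moricandioides* and 61.5 to 94.0 rpm in *M. arvensis*, 0.67, edgeR adjusted p = 0.0017), as was XGD1, which adds xylose to galacturonan (1.30). UGD1 was the gene higher in *M. suffruticosa* (0.66, edgeR adjusted p = 0.0066). PGIP1, which blocks fungal polygalacturonases, varied within *M. arvensis* from 17.1 rpm in plant 9 to 182 rpm in plant 15 and was not called. Calls of this list were not repeated with plants left out or with close pairs counted as 1 library each.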

How the data were processed

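Leaf RNA libraries of 11 plants were sequenced as single-end reads by the authors, who searched each read with BLAT, in protein space, against coding sequences of Arabidopsis (TAIR 10) reduced to a minimal set, kept the best hit and summed reads per gene. The sources used here do not give the BLAT version, and the submitters' processing notes also name CASAVA and edgeR. The deposited table holds whole-number counts per gene and the rpm that the authors computed from them, which are counts scaled to the library total without correction for gene length. Since cross-species matching depends on how close each sequence is to Arabidopsis, levels can differ from those on a genome of the species. The deposited table of read totals was not used, because 1 of its labels matches no plant, and neither was the table with the authors' own fold changes and p-values between species.

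Counts were tested in R 4.3.3 with edgeR 4.0.16 (filterByExpr by species with at least 10 counts, TMM, quasi-likelihood F test, 1 term per species, all 11 libraries), with Benjamini–Hochberg adjustment over the 15570 genes kept and a threshold of 0.01, which is the false discovery rate used by the study. The biological coefficient of variation was 0.259. Library depth was 10987959 to 14865167 reads, and the counting interval covers counting error only. Labels give a plant number for each library, which is taken as a separate plant. Alternatives used limma 3.58.1 and DESeq2 1.42.0, other scalings, filters and thresholds, a replicate block, and fits without each plant, and the procedure was tested on simulated data. Sums and figures were made in Python 3.11.15 with pandas 2.3.3, numpy 2.4.6, scipy 1.17.1 and matplotlib 3.10.9.

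Genes were put into classes by the protein domains, enzyme activities and wording of the deposited descriptions. For the pectate lyase-like genes a list of Arabidopsis loci was used as well. Those named by rule were called genes with a species mean of at least 10 rpm (the 30 with the largest change of 36), the 3 with the most reads in each class, and tested genes of a list of 24 with known roles; genes with 0 reads in 1 species and 30 or more in another would have been named but there were 0. The genes, lists and rule were chosen with earlier results of these data known. Marker lists covered mesophyll, vascular tissue, bundle sheath, epidermis, guard cells, dividing cells and pollen, and a further list covered pectin synthesis and perception.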

Additional observations from a re-analysis of the deposited data

Results flagged for a closer look

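In groups of 4 plants, 7 of 74 sets of plant values (9.5%) of the named genes held 1 plant far from the other 3. The limit used for this gives about 1 in 20 by chance only for 4 independent, normally distributed values. The sets came from the same libraries, and *M. arvensis* plants 13 and 15 are a close pair. The 7 are therefore a listing, and no excess over chance can be read from them. In *M. arvensis* plant 9, AT5G63180 was at 83.0 rpm (others 40.1 to 43.1), AT3G09405 at 27.5 rpm (others 16.8 to 18.4), AT4G20040 at 0.391 rpm (others 0.0745 to 0.0892) and AT5G09760 at 19.9 rpm (others 47.6 to 47.8). In *M. arvensis* plant 12, AT4G19410 was at 81.9 rpm (others 139 to 145) and AT5G47500 at 0.624 rpm (others 0 to 0.0862). In *M. moricandioides* plant 6, AT3G09405 was at 3.68 rpm (others 1.61 to 1.81). The value of AT4G20040 is 5 reads, against 1 read in each other *M. arvensis* plant. That of AT5G47500 is 7 reads, against 0 or 1.

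The change against *M. moricandioides* differed between the intermediates in 16 of the 37 named genes, as tested by the comparison of *M. arvensis* with *M. suffruticosa* in edgeR. Of the 37, 30 were named for a large change called in at least 1 of the 3 comparisons, this one included. The 16 are therefore a listing and not a share to set against other genes. In this comparison 27.5% of the 69 pectin genes tested and 19.3% of all genes were called. The log2 difference was positive for AT2G43050 (2.55), AT1G62760 (2.31), AT1G23205 (2.29), AT1G23200 (2.19), AT1G48100 (2.17), AT3G57790 (2.00) and AT3G09405 (1.96). It was negative for AT5G47500 (−6.51), AT1G67750 (−3.88), AT4G23820 (−2.73), AT3G49220 (−2.19), AT5G49215 (−2.14), AT3G43270 (−1.84), AT5G63180 (−1.81), AT5G09760 (−1.80) and AT3G54920 (−1.43). In AT5G47500 and AT3G57790 the intermediates were each called different from *M. moricandioides*, in opposite directions.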

How the results depend on the processing

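Counts of called genes stayed within 1.5 times the reported ones with RLE factors, library totals, no filter, a filter of 10 rpm, limma-voom, DESeq2, the edgeR likelihood ratio test and only the 2 species compared. An adjusted p of at most 0.05 gave 11 higher genes of 69 in *M. suffruticosa* (18.1% of all genes) and 13 of 69 higher in *M. arvensis* against *M. suffruticosa* (17.3% of all genes). Close pairs counted as 1 library each gave 3 of 72 lower in *M. suffruticosa* (3.82% of all genes) and 7 of 72 lower in *M. arvensis* against *M. suffruticosa* (3.67% of all genes). With 1 plant left out, higher and lower genes ranged from 10 to 12 and 15 to 25 in *M. arvensis*, from 5 to 8 and 2 to 19 in *M. suffruticosa*, and from 6 to 11 and 10 to 17 between the intermediates, of 68 to 73 genes tested. In these fits the shares of all genes called were 14.1 to 18.5% and 13.8 to 17.6%, 6.14 to 11.4% and 4.16 to 10.9%, and 4.22 to 9.81% and 5.59 to 11%. With library totals the median of all genes moved to 0.16 in *M. arvensis*. No named call reversed under any alternative, and of 63 named calls 40 held in all alternatives other than the replicate block. Close pairs counted as 1 library each ended 21 of the 63, of which 3, all between the intermediates, were lost with no single plant left out: AT5G63180, PMR6 (AT3G54920) and AT2G43050 (edgeR adjusted p = 0.0152, 0.0101 and 0.017).

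Plant numbers shared by species do not pair the plants: deviations from the species mean correlated at 0.0083, 0.030, 0.0097 and 0.021 for the 4 shared pairs. The fit with the replicate block, in which the 7 plant numbers leave 2 residual degrees of freedom among the 11 libraries, gave 6 higher and 8 lower genes in *M. arvensis*, 1 higher and 0 lower in *M. suffruticosa* and 0 of each between the intermediates, and 15 of the 63 named calls held in it. Over all genes, 2.46% and 2.68%, 0.507% and 0.43%, and 0% and 0% were called higher and lower in this fit, so few genes of any kind were called. At an unadjusted edgeR p under 0.05 this fit had 13 higher and 30 lower genes in *M. arvensis*, 10 higher and 27 lower in *M. suffruticosa* and 13 and 14 between the intermediates. The share of all genes at that unadjusted threshold is not known. Too few reads kept 56 genes from being tested.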

Other observations

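Some inhibitors and enzymes with few reads were uneven between species but were not tested, and they are named after their values were seen. The inhibitor AT4G25250 had 7 reads in *M. moricandioides*, 108 reads in *M. arvensis* and 2 reads in *M. suffruticosa*, with 100 of the 108 in plants 13 and 15, the close pair, and 43 left without plant 13. The inhibitor AT2G47050 had 42, 3 and 8, the methylesterase PME38 (AT4G00190) had 36, 3 and 8, and the polygalacturonase-like gene AT3G14040 had 26, 0 and 1. For AT2G47050 the ratio of *M. moricandioides* to *M. arvensis* reads per library total was 12.4 with an exact 95% counting interval of 3.96 to 62.6, and for PME38 it was 10.6 (3.36 to 54.0). These intervals cover counting error only and not the spread between plants.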
